A study of Mus musculus with 6 samples.

Results

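The G1 cyclins, their kinases, E2F1 and the retinoblastoma proteins decide whether a cell enters S phase, and 10 genes of this control step were examined in C2C12 cells after siRNA against huntingtin (Htt). The genes were chosen by name (Ccnd1, Ccnd2, Ccnd3, Cdk4, Cdk6, Ccne1, Ccne2, E2f1, Rb1 and Rbl1), and 9 of the 10 had a value among the 22180 genes measured by a probe set annotated to a single symbol. Ccne2, the gene of cyclin E2, had no such probe set, because its probe set is annotated to Ints8 as well. Where a gene had several probe sets, the one with the highest mean over the 6 arrays was used, which applied to Rb1 alone among the members.

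C2C12 is a mouse myoblast line that divides in rich medium and forms multinucleate muscle fibres when serum is withdrawn. The 3 treated samples had been transfected with an siRNA pool directed at Htt, known from the human neurodegenerative disease that its repeat expansion causes, and the 3 control samples with scramble siRNA; both groups were grown in standard medium. The sample names of the treated group use the word KO, although the cells received siRNA. Neither the time of harvest nor the use of separate cultures for replicates is stated, so p-values reflect only how far these samples lie apart, which may be technical spread.

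In dividing cells, growth signals raise the D cyclins, which bind CDK4 and CDK6. These kinases phosphorylate the retinoblastoma protein Rb and its relatives p107 (Rbl1) and p130, which otherwise hold E2F factors in check. Released E2F then drives genes for cyclin E and for DNA replication, and cyclin E with CDK2 completes the inactivation of Rb. When myoblasts leave the cycle and differentiate, cyclin D1 and p107 are known to decline while cyclin D3 and Rb accumulate.

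Expression was given as log2 values, in which a difference of 1 is a doubling of signal. Htt itself stood at 4.49, 4.47 and 4.65 in the Htt siRNA arrays, against 5.59, 5.60 and 5.72 in the scramble arrays. Its log2 fold change, Htt siRNA minus scramble, was -1.10 ± 0.09 (standard error, n = 3 per group; limma adjusted p = 0.0559), and the groups did not overlap. Whether Htt passed the threshold depended on the setting: 6 of the 7 planned settings with all arrays brought its adjusted p under 0.05 (lowest 0.0128), and leaving out 1 array gave between 0.00778 and 0.348. The log2 fold change itself stayed between -1.16 and -1.04. All 6 myoblast markers (Myod1, Myf5, Des, Cdh15, Ncam1 and Itga7) lay above the median gene mean of 2.95, with gene means between 6.25 and 10.2. Markers of endothelial cells and adipocytes lay below that median, 5 of 5 each. Of the others, 1 of 6 fibroblast markers (Pdgfra), 3 of 6 macrophage and leukocyte markers, 2 of 5 epithelial and 3 of 5 neuronal markers lay above it, the brightest of these being Stmn2 at 9.40.

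Some of these markers differed between the groups, none past the adjusted threshold. All 6 myoblast markers had positive log2 fold changes, 5 of them without overlap of the groups, against 10.1% of all genes. At an unadjusted limma p under 0.05, 3 were higher, against 5.72% of all genes, and 0 were at the adjusted threshold. The 3 were Ncam1 (0.49 ± 0.12), Myod1 (0.66 ± 0.27) and Cdh15 (0.41 ± 0.17). The mean relative level of the 6 myoblast markers was 0.19, 0.07 and 0.35 in the Htt siRNA arrays, against -0.16, -0.42 and -0.02 in the scramble arrays. Of the other markers, Pdgfra (-0.26 ± 0.11), Cd68 (-0.39 ± 0.14) and Cd14 (-0.30 ± 0.12) were lower at an unadjusted limma p under 0.05, as were 5.14% of all genes. The adipocyte marker Cidec (0.52 ± 0.12) was higher at that threshold. Positive log2 fold changes were found in 3 of 6 fibroblast, 4 of 6 macrophage and leukocyte and 5 of 5 adipocyte markers. They were also found in 5 of 5 endothelial, 4 of 5 neuronal and 2 of 5 epithelial markers. The median over all genes was 0.03. The part of any of these in the results below was not tested.

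Htt siRNA replicate 2 stood apart from the other Htt siRNA arrays in the genes of S phase, as described with the lists below. Values of the members and lists are therefore given with and without it. That array was singled out by the level of the very genes described here, and leaving out the treated array nearest to the scramble arrays makes their difference larger and its error smaller by that choice. The p-values and counts of calls without it are conditional on that choice and are given as a description, not as support. Without that array the difference rests on 2 arrays against 3, and the Htt value itself was -1.07 ± 0.10 (limma adjusted p = 0.00778).

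Rbl1 and Ccnd1 had the largest differences of the 9 measured genes, both lower after Htt siRNA, and Ccne1 followed. Cdk4 and Cdk6 had values close to 0, E2f1 and Ccnd2 differed by less than their standard errors, and Ccnd3 and Rb1 lay slightly higher. Limma called 0 of the 9 members at an adjusted p under 0.05, a threshold that 0% of all genes passed. At an unadjusted p under 0.05, 2 of the 9 were lower, against 5.14% of all genes, and 0 were higher, against 5.72% of all genes. The groups overlapped for all 9 members, whereas all 3 Htt siRNA arrays lay below all 3 scramble arrays in 5.91% of genes and above them in 10.1%. The median log2 fold change was -0.07 over the members and 0.03 over all genes. The count of 2 was 0 when replicate 1 or 3 of Htt siRNA, or replicate 2 or 3 of scramble, was left out. It was 3 when Htt siRNA replicate 2 or replicate 1 of scramble was left out.

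**Figure D1:**
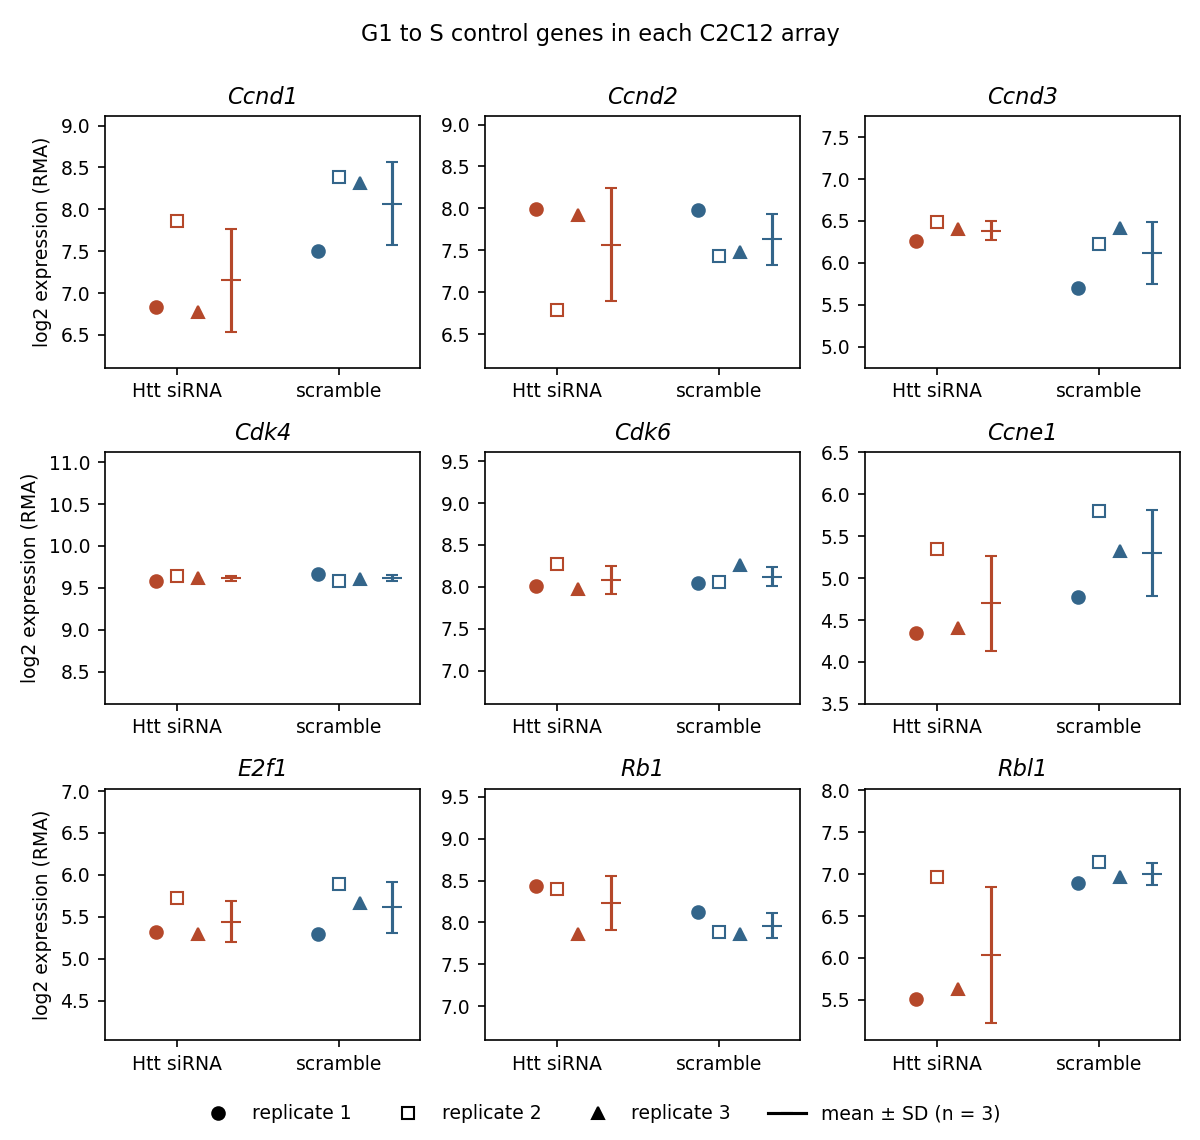
Log2 expression of the 9 measured G1 to S control genes in each array, Htt siRNA left and scramble right, with the replicate marked by symbol and the mean ± SD (n = 3) beside the points; each panel spans 3 log2 units. In Ccnd1, Ccne1 and Rbl1, Htt siRNA replicates 1 and 3 lie lowest and replicate 2 lies among the scramble arrays, while the Cdk4 points nearly coincide.

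The D cyclins did not share a pattern. Ccnd1 encodes cyclin D1, the partner of CDK4 and CDK6 that responds most directly to mitogens. It stood at 6.83, 7.86 and 6.77 in Htt siRNA replicates 1, 2 and 3, against 7.50, 8.39 and 8.31 in the scramble arrays. Htt siRNA replicates 1 and 3 lay below every scramble array, and replicate 2 lay between scramble replicate 1 and the other scramble arrays. Ccnd1 was 1.88-fold lower after Htt siRNA, a log2 fold change of -0.91 ± 0.34 with a 95% confidence interval of -1.69 to -0.13 (limma adjusted p = 0.416). Without Htt siRNA replicate 2 the log2 fold change was -1.26 ± 0.25, and limma's adjusted p of 0.0527 lay just above the threshold.

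Ccnd2, the gene of cyclin D2, stood at 7.99, 6.79 and 7.92 in Htt siRNA replicates 1, 2 and 3, against 7.98, 7.43 and 7.48 in the scramble arrays. The lowest and the highest of the 6 values both came from the Htt siRNA group. The log2 fold change was -0.07 ± 0.32 (95% confidence interval -0.80 to 0.66, limma adjusted p = 0.954), and it turned positive when Htt siRNA replicate 2 (0.32 ± 0.17) or scramble replicate 1 (0.10) was left out.

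Ccnd3 encodes cyclin D3, the D cyclin that muscle cells retain as they differentiate. It stood at 6.26, 6.49 and 6.40 in the Htt siRNA arrays, against 5.70, 6.23 and 6.41 in the scramble arrays. Scramble replicate 1 was the lowest and the other 5 arrays lay within a narrow range. Its log2 fold change was 0.27 ± 0.18 (95% confidence interval -0.14 to 0.69, limma adjusted p = 0.612), and leaving out Htt siRNA replicate 2 gave 0.22 ± 0.20. Scramble replicate 1 alone, when dropped, brought it to 0.07.

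The kinases that the D cyclins activate showed almost no difference. Cdk4 stood at 9.58, 9.64 and 9.62 in the Htt siRNA arrays, against 9.66, 9.58 and 9.61 in the scramble arrays. Its log2 fold change was -0.01 ± 0.08, with a 95% confidence interval of -0.19 to 0.17 (limma adjusted p = 0.983). Cdk6 stood at 8.01, 8.27 and 7.97 in the Htt siRNA arrays, against 8.05, 8.06 and 8.26 in the scramble arrays. Htt siRNA replicate 2 and scramble replicate 3 were the high arrays. The log2 fold change of Cdk6 was -0.04 ± 0.11 (95% confidence interval -0.30 to 0.22, limma adjusted p = 0.928). With Htt siRNA replicate 2 left out, the values were -0.02 ± 0.09 for Cdk4 and -0.13 ± 0.11 for Cdk6. The intervals leave room for a small difference in either direction, and the Cdk4 interval was the narrowest among the members.

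Ccne1, the gene of cyclin E1, which activates CDK2 at the entry to S phase and is itself an E2F target, stood at 4.35, 5.35 and 4.40 in Htt siRNA replicates 1, 2 and 3, against 4.77, 5.80 and 5.33 in the scramble arrays. Htt siRNA replicates 1 and 3 were again the lowest arrays, and Htt siRNA replicate 2 lay above scramble replicates 1 and 3. Ccne1 was 1.51-fold lower, a log2 fold change of -0.60 ± 0.33 (95% confidence interval -1.36 to 0.16, limma adjusted p = 0.548). Without Htt siRNA replicate 2 it was -0.93 ± 0.26, with a limma adjusted p of 0.145.

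E2f1 encodes an activating E2F factor that switches on replication genes. Its values were 5.32, 5.72 and 5.29 in Htt siRNA replicates 1, 2 and 3, against 5.29, 5.89 and 5.66 in the scramble arrays. Scramble replicate 1 was as low as Htt siRNA replicates 1 and 3. For E2f1 the log2 fold change was -0.17 ± 0.18 (95% confidence interval -0.58 to 0.24, limma adjusted p = 0.763) and -0.31 ± 0.17 without Htt siRNA replicate 2.

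Of the pocket proteins, which bind and restrain E2F factors, Rb1 and Rbl1 had opposite signs. Rb1, the retinoblastoma gene, stood at 8.44, 8.40 and 7.86 in Htt siRNA replicates 1, 2 and 3, against 8.13, 7.89 and 7.86 in the scramble arrays. Htt siRNA replicates 1 and 2 were the highest arrays, and replicate 3 lay with the lowest scramble arrays. Rb1 had a log2 fold change of 0.28 ± 0.17 (95% confidence interval -0.11 to 0.66, limma adjusted p = 0.587), or 0.19 ± 0.18 without Htt siRNA replicate 2. Dropping Htt siRNA replicate 3 in its place gave 0.46, with an unadjusted limma p of 0.00569 and an adjusted p of 0.624. The dimmer probe set of Rb1, left out by the rule, lay between 1.60 and 1.83 in all arrays.

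Rbl1 encodes p107, a pocket protein of dividing cells whose gene is a known E2F target. It stood at 5.51, 6.97 and 5.63 in Htt siRNA replicates 1, 2 and 3, against 6.89, 7.15 and 6.97 in the scramble arrays. Htt siRNA replicates 1 and 3 lay more than 1 log2 unit below every scramble array, and replicate 2 equalled scramble replicate 3. The SD of Rbl1 was 0.81 in the Htt siRNA arrays and 0.13 in the scramble arrays (n = 3 each). It was 1.95-fold lower after Htt siRNA, a log2 fold change of -0.97 ± 0.35 (95% confidence interval -1.78 to -0.15, limma adjusted p = 0.407).

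With Htt siRNA replicate 2 left out, the log2 fold change of Rbl1 was -1.43 ± 0.12, a 2.70-fold lower level (limma adjusted p = 0.00778). In that fit 1 of the 9 members was under the adjusted threshold, where 1.91% of all genes were called lower and 0.528% higher. Since the array was chosen by its high level of S phase genes, nothing is read from that call. Between the fits that left out 1 array each, the log2 fold change of Rbl1 lay between -1.43 and -0.70, and its adjusted p between 0.00778 and 0.727.

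**Figure D2:**
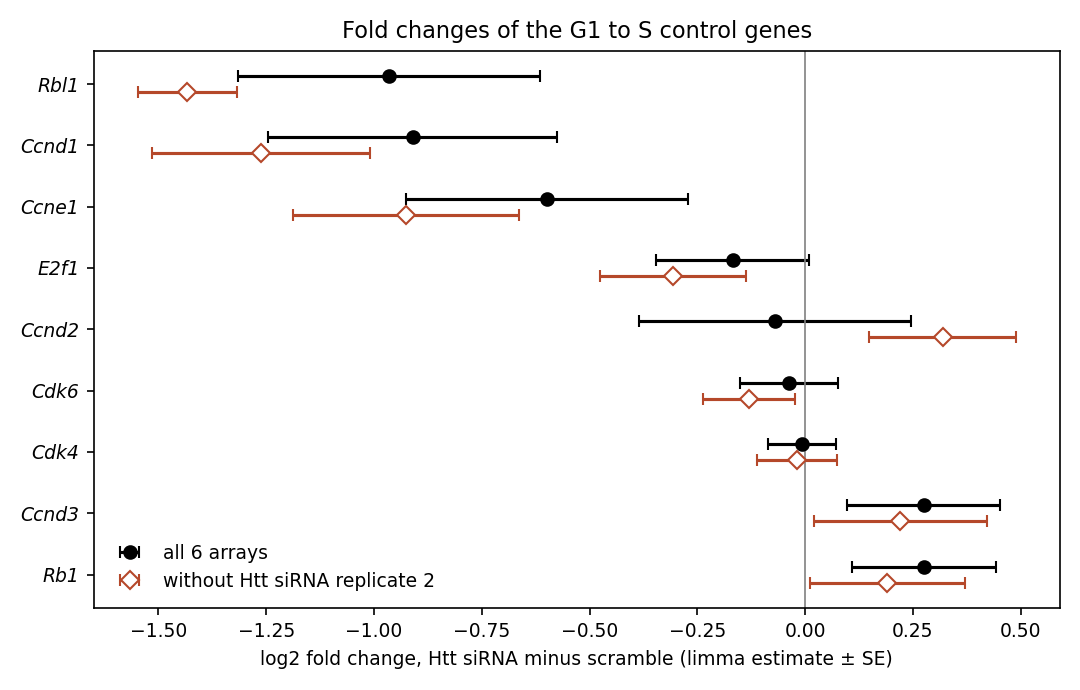
Log2 fold change (Htt siRNA minus scramble, limma estimate ± standard error) of each measured member, with all 6 arrays (filled circles) and without Htt siRNA replicate 2 (open diamonds). Rbl1, Ccnd1 and Ccne1 move further below 0 without that array (Rbl1 at -1.43, Ccnd1 at -1.26), Ccnd2 crosses 0, and Cdk4 keeps its place near 0.

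The stretches around the transcription start sites of Rbl1 and Ccne1 are shown because both genes are known E2F targets and were the lower members beside Ccnd1. Of the 10 members, 6 had at least 1 such window in the RefSeq promoter table (GRCm38.p6), namely Ccnd3, Ccne1, Cdk4, Cdk6, E2f1 and Rbl1. Ccnd1 had none and could not be searched. Each window runs from 250 bases before to 50 bases after a start site. The Rbl1 window is chr2:157204485-157204784 on the minus strand and the Ccne1 window chr7:38107441-38107740 on the minus strand, each written 5′ to 3′ on the strand of the gene. Capitals mark the E2F word TTTCGCGC in Rbl1, and the shorter core TCCCGC with its reverse complement GCGGGA in Ccne1.

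Rbl1: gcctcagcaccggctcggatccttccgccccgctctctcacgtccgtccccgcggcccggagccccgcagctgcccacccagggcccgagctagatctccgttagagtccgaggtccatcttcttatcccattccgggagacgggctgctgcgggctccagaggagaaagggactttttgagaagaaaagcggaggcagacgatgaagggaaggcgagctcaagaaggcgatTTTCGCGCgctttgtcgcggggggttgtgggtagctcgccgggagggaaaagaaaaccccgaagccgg
Ccne1: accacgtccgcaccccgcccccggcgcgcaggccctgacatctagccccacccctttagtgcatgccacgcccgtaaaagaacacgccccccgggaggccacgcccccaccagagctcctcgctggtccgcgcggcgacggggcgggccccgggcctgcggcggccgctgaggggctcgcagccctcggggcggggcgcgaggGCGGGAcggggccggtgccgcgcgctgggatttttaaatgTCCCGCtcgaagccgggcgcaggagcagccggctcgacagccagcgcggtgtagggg

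The search for E2F motifs used the 4 words TTTCCCGC, TTTCGCGC, TTTGCCGC and TTTGGCGC on both strands. It also used, separately, the core TCCCGC on both strands, which the word TTTCCCGC contains. Of the 7 windows of members, 1 held an E2F word, that of Rbl1, where it begins 18 bases before the start site. Among all 32851 windows of the table, 2.26% held such a word. The core was found in the windows of Ccne1 and Cdk6, against 20.0% of all windows. In Ccne1 it begins 47 and 7 bases before the start site. The windows of Ccnd3, Cdk4 and E2f1, itself a known E2F target, held neither a word nor the core. The same windows were also searched for CACGTG (E-box), GGGCGG (GC box) and CCAAT. These lay in 2, 6 and 1 of the 7 windows of members, against 7.15%, 35.7% and 37.4% of all windows. All matches describe letters in the windows only, since binding of E2F or any other factor was not measured.

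Alternative subunits were compared within each array, as the difference between the log2 values of a pair of members, so that a shift common to both cancels. Of the 5 pairs planned, 4 could be computed, since Ccne2 had no value, and the p-values were adjusted over these 4. For Ccnd1 minus Ccnd3 the values relative to the 6-array mean were -0.79, 0.00 and -0.99 in Htt siRNA replicates 1, 2 and 3, against 0.44, 0.80 and 0.54 in the scramble arrays. Every Htt siRNA array, replicate 2 included, lay below every scramble array. Neither gene alone separated the groups. Ccnd1 was higher in Htt siRNA replicate 2 (7.86) than in scramble replicate 1 (7.50), the array in which Ccnd3 was lowest (5.70). For the pair, the difference between the groups was -1.19 (exact two-sided permutation p = 0.1, adjusted p = 0.2), and 0.1 is the smallest p that 3 against 3 allows.

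The same held for Rbl1 minus Rb1, which stood at -1.36, 0.14 and -0.65 in the Htt siRNA arrays, against 0.34, 0.84 and 0.68 in the scramble arrays. Here too neither gene alone separated the groups, with Rbl1 at 6.97 in both Htt siRNA replicate 2 and scramble replicate 3. For Rbl1 minus Rb1 the difference was -1.24 (exact two-sided permutation p = 0.1, adjusted p = 0.2). For Ccnd1 minus Ccnd2 the groups overlapped, with a difference of -0.84 (exact permutation p = 0.4, adjusted p = 0.533), which became -1.58 without Htt siRNA replicate 2. For Cdk6 minus Cdk4 the difference was -0.03 (exact permutation p = 0.7, adjusted p = 0.7). When 1 array was left out, Ccnd1 minus Ccnd3 lay between -1.48 and -0.99 and Rbl1 minus Rb1 between -1.63 and -0.87.

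**Figure D3:**
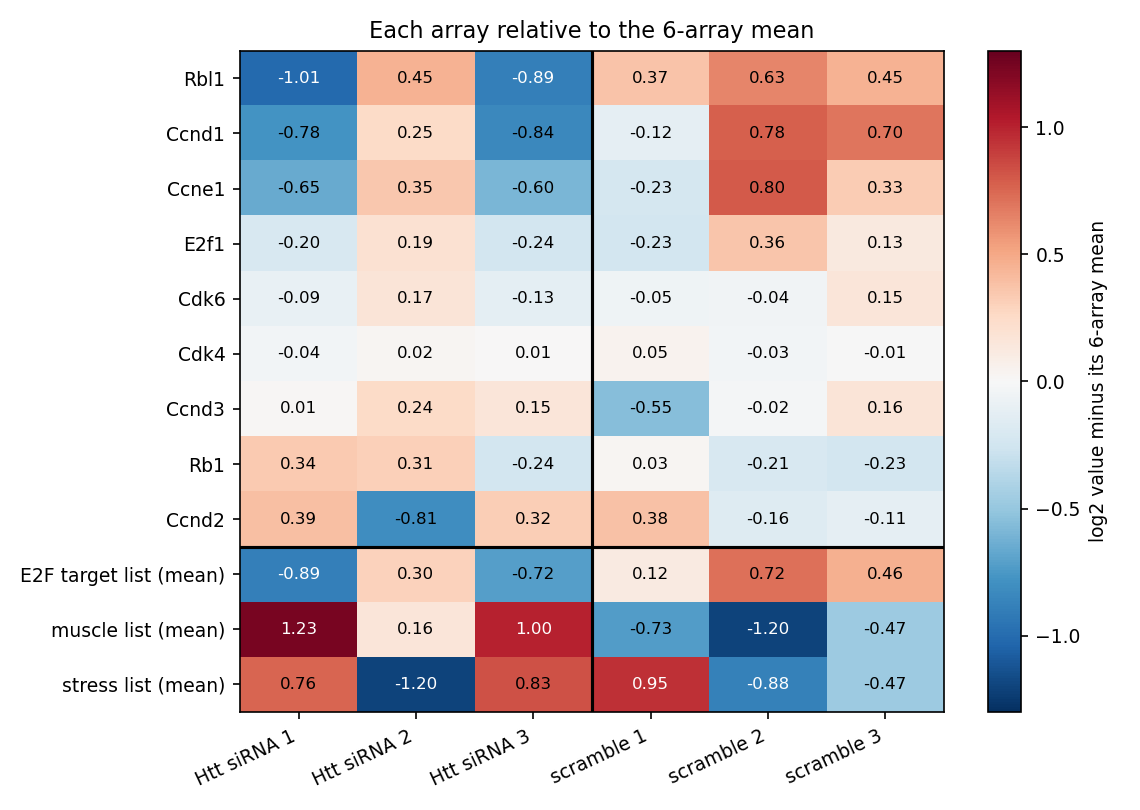
Log2 value of each member in each array minus its mean over the 6 arrays, Htt siRNA arrays left of the line and scramble arrays right, with the mean of 3 gene lists treated the same way in the lower rows. Rbl1, Ccnd1, Ccne1 and the E2F target list are low in Htt siRNA replicates 1 and 3 and not in replicate 2, whereas Ccnd2 is lowest in Htt siRNA replicate 2 (-0.81).

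The members differed among themselves in which arrays were high. Rbl1, Ccnd1 and Ccne1 were below their own 6-array mean in Htt siRNA replicates 1 and 3 and above it in replicate 2, as was E2f1 by a smaller margin. Scramble replicate 1 lay below the mean for Ccnd1 (-0.12), Ccne1 (-0.23) and E2f1 (-0.24) but above it for Rbl1 (0.37). Ccnd2 ran the other way, at 0.39, -0.81 and 0.32 in the Htt siRNA arrays and at 0.38, -0.16 and -0.11 in the scramble arrays.

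A list of 18 unfolded protein and integrated stress response genes, which are induced by misfolded protein and amino acid shortage, had a mean relative level of 0.76, -1.20 and 0.83 in Htt siRNA replicates 1, 2 and 3, against 0.95, -0.88 and -0.47 in the scramble arrays. Its median log2 fold change was 0.25, or 0.81 with Htt siRNA replicate 2 left out, and it lay between -0.15 and 0.88 over the fits that left out 1 array. Ccnd2 was high in the 3 arrays with high stress levels, and Ccnd1, Ccne1 and E2f1 were below their means in them. The part of the stress genes in these values was not tested. A list of 10 genes of differentiated muscle, such as Myog, the factor that starts terminal differentiation, stood at 1.23, 0.16 and 1.00 in the Htt siRNA arrays, against -0.73, -1.20 and -0.47 in the scramble arrays. Its median log2 fold change was 1.59, or 1.95 with Htt siRNA replicate 2 left out. Limma found 0 of its 10 genes at the adjusted threshold. With Htt siRNA replicate 2 left out, 9 were called higher, against 0.528% of all genes. A replicate block gave 7, against 41 higher among all 22180 genes. At an unadjusted p under 0.05, 10 of 10 were higher, against 5.72% of all genes. In bulk RNA, fewer cycling cells and less cell cycle RNA per cell cannot be told apart.

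The best known readout of the pathway is the set of replication genes that E2F factors activate. All 25 measured genes of that list (27 written) had negative log2 fold changes, with a median of -0.90 against 0.03 for all genes. Limma called 0 of the 25 at the adjusted threshold, while 21 were lower at an unadjusted p under 0.05, against 5.14% of all genes. The smallest p belonged to Cdc6, a licensing factor of replication origins, at 4.50, 5.48 and 4.48 in the Htt siRNA arrays, against 5.59, 6.66 and 6.08 in the scramble arrays. Its log2 fold change was -1.29 ± 0.34 (limma adjusted p = 0.318). The helicase subunit genes Mcm6 (-1.07 ± 0.32) and Mcm2 (-1.01 ± 0.31) came next.

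The level of the list was -0.89, 0.30 and -0.72 in Htt siRNA replicates 1, 2 and 3, against 0.12, 0.72 and 0.46 in the scramble arrays, so that replicate 2 lay within the scramble range. The count of 21 became 3 when Htt siRNA replicate 1 or 3 was dropped, 4 when scramble replicate 2 was dropped and 11 when scramble replicate 3 was dropped. It became 24 without Htt siRNA replicate 2. Among all 22180 genes, 687 were lower at that p without Htt siRNA replicate 1 and 1720 without replicate 2. With Htt siRNA replicate 2 left out, the median was -1.26. Limma then called 19 of the 25 lower at the adjusted threshold, against 1.91% of all genes. The 24 and the 19 follow in part from the choice of that array by the level of these genes. The list was written with earlier results of these data known, and its genes were read on the same few arrays. None of these counts is therefore one of independent genes.

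The other E2F and DP factors (the dimer partners of E2F) numbered 9. Of these 8 had negative log2 fold changes, and the list median was -0.50 (-0.68 with Htt siRNA replicate 2 left out). Limma found 0 at the adjusted threshold and 2 lower at an unadjusted p under 0.05, against 5.14% of all genes. The 2 were the repressive factor E2f6 (-0.74 ± 0.24, limma adjusted p = 0.387) and the activating factor E2f3 (-0.56 ± 0.21, limma adjusted p = 0.419). Tfdp1, the main dimer partner, had a value of -0.50 ± 0.22 and passed without Htt siRNA replicate 2 (-0.77, limma adjusted p = 0.0330). Among factors singled out after their values were seen, the repressive E2f7 and E2f8 had values of -0.69 ± 0.41 and -0.84 ± 0.52, with Htt siRNA replicate 2 again high. The count of 2 became 6 without that array, 4 without scramble replicate 1 and 1 without any other single array. Among all 22180 genes, 1720 were lower at that p without Htt siRNA replicate 2 and 687 without replicate 1.

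Rbl2, the gene of p130, the MuvB complex, its partner Mybl2 and the kinase gene Dyrk1a gave 8 genes. MuvB joins p107 and p130 to silence cell cycle genes in resting cells and joins MYBL2 to activate them later. The list median was -0.14 (-0.23 with Htt siRNA replicate 2 left out). Limma found 0 at the adjusted threshold and 3 lower at an unadjusted p under 0.05, against 5.14% of all genes. The 3 were the MuvB subunits Lin54 (-0.66 ± 0.21) and Lin9 (-0.85 ± 0.36) and the activator Mybl2 (-0.81 ± 0.28). All 3 passed the adjusted threshold without Htt siRNA replicate 2 (limma adjusted p = 0.00778, 0.0103 and 0.0268 in that order), where 1.91% of all genes were called lower. Their count at an unadjusted p under 0.05 became 0 for the whole list without Htt siRNA replicate 1 or 3 and 1 without scramble replicate 2. Among all 22180 genes, 687 were lower at that p without Htt siRNA replicate 1. Rbl2 itself, chosen after its value was seen, had a log2 fold change of -0.09 ± 0.12.

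Of 9 other cyclin and kinase genes of S phase entry, limma found 0 at the adjusted threshold. At an unadjusted p under 0.05, 2 were lower, against 5.14% of all genes. The list median was -0.25 (-0.35 with Htt siRNA replicate 2 left out). Ccna2, the gene of cyclin A2, had a value of -0.75 ± 0.29 and Cks2, a kinase adaptor, -0.69 ± 0.29, and both passed without Htt siRNA replicate 2 (limma adjusted p = 0.0103 and 0.0398). Cdc25a, the phosphatase that activates CDK2, had a value of -0.67 ± 0.29. The count of 2 became 5 without scramble replicate 1, 4 without Htt siRNA replicate 2 and 0 without any other single array. Among all 22180 genes, 687 to 1720 were lower at that p with 1 array left out.

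Limma found 0 of the 7 cyclin-dependent kinase inhibitors at either threshold, and their median was 0.04 with all arrays and with Htt siRNA replicate 2 left out. The inhibitors with the smallest p were Cdkn2d (-0.42 ± 0.26), Cdkn1c (0.20 ± 0.12) and Cdkn1b (0.19 ± 0.12), the gene of p27. The inhibitor gene Cdkn1a, chosen after its value was seen, had a value of 0.16 ± 0.13. Leaving out Htt siRNA replicate 2 made 2 inhibitors lower at an unadjusted p under 0.05, and 0 at the adjusted threshold. In that fit 1720 of all 22180 genes were lower at that unadjusted p.

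Limma also found 0 at either threshold among 11 genes that govern the turnover of G1 cyclins and inhibitors (median -0.03, or -0.07 with Htt siRNA replicate 2 left out) and among 8 measured growth signal genes upstream of the D cyclins (median -0.08, or 0.03 with that array left out). In the turnover list the values were -0.86 ± 0.37 for Fbxo5, an inhibitor of the anaphase-promoting complex that is also an E2F target, -0.31 ± 0.14 for Fzr1, an activator of that complex, and 0.27 ± 0.13 for Fbxo4, a receptor of a cyclin D1 ligase. In the growth signal list they were -0.60 ± 0.26 for the immediate early gene Egr1, 0.18 ± 0.12 for Fos and -0.13 ± 0.09 for Ctnnb1, the gene of beta-catenin. Without Htt siRNA replicate 2, limma called Fbxo5 (adjusted p = 0.0340) and Egr1 (adjusted p = 0.0250) lower. Without scramble replicate 1, 3 turnover genes were lower at an unadjusted p under 0.05. Among all 22180 genes, 687 to 1720 were lower at that p in the fits that left out 1 array. Over the 7 lists together, limma called 0 genes with all arrays and 27 lower without Htt siRNA replicate 2. In that fit 1.91% of all genes were called lower. As the array was chosen by its level of S phase genes, the 27 are given as a description only.

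**Figure D4:**
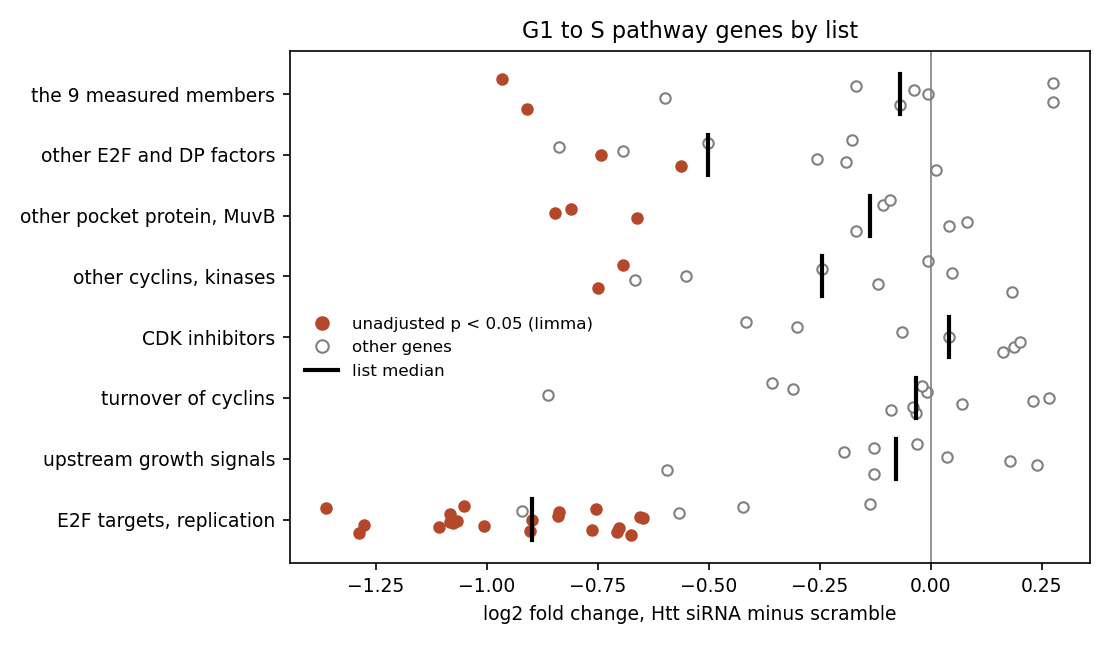
Log2 fold change (Htt siRNA minus scramble) of every measured gene in each list of G1 to S control, with filled points for an unadjusted limma p under 0.05 and a bar at the list median. The E2F targets of replication lie lowest (median -0.90), and the cyclin-dependent kinase inhibitors lie around 0 (median 0.04).

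The genes whose values followed each member most closely over the 6 arrays were found among 10582 named genes above the median gene mean, by Pearson's r of the log2 values. Since the 6 arrays hold both groups and the same few array differences, r is given as a description with no test. Rbl1 was followed by Bora, Melk and Aspm (r = 0.997 each), whose log2 fold changes were -0.95, -1.01 and -0.72. Ccnd1 was followed by Idh3a (0.998), St6gal1 (0.996) and Slc9a3r1 (0.995), with smaller log2 fold changes of -0.24, -0.535 and -0.50. For Ccne1 they were Hnrnpm (0.997), Fam171a1 (0.996) and Tpgs2 (0.994), at -0.13, -0.276 and -0.199. For E2f1 they were Skp2 (0.997), Dctpp1 (0.984) and Ergic1 (0.984), at -0.358, -0.183 and -0.043. A high r thus went with large and small differences alike.

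Ccnd2 was followed by Hk2 (r = 0.991), Snora74a (0.989) and Taco1 (0.988), and Ccnd3 by Letm1 (0.993), Asmt (0.987) and Abhd8 (0.986). Cdk6 was followed by Tmem129 (0.998), Pygb (0.998) and Itgb8 (0.994), and Rb1 by Ppfibp1 (0.995), Fabp3 (0.993) and Strn3 (0.984). For Cdk4, whose values spanned under 0.1 log2 units, the closest were Ndufa9 (0.976), Zfp174 (0.975) and Ptpn23 (0.969). No gene appeared in the list of more than 1 member.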

How the data were processed

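Total RNA of C2C12 cells was measured on 6 Affymetrix arrays, 3 with Htt siRNA and 3 with scramble siRNA. The authors deposited 1 table of log2 values for 41345 probe sets; per the submitters' processing notes they used RMA and the affy package, which correct background, normalise by quantiles and summarise probes. RMA compresses weak signals, and quantile normalization hides a change in total RNA per cell. The platform annotation gave 23521 probe sets 1 symbol and 1814 several, and 16010 were unnamed here; by Entrez identifier 23328 matched a RefSeq gene table (GRCm38.p6). One probe set with the highest mean stood for each of 22180 genes, without a filter on dim genes. Limma 3.58.1 in R 4.3.3 (lmFit, eBayes, group as the only term, all 6 arrays) gave two-sided p-values. These were adjusted by Benjamini-Hochberg over all genes, with a threshold of 0.05. The fit was tested on simulated data, in which each gene was drawn independently. Deviations that many genes of an array share were not part of that test. Differences between pairs of members were tested by exact permutation over arrays (scipy 1.17.1). From each list, the genes past the adjusted threshold (at most 3) or else the 3 with the smallest p were named. Members and lists were chosen with earlier results of these data known. Alternatives were a filter on dim genes, median centring, repeated quantile normalization, trend with robust eBayes, array weights, the mean of probe sets, a replicate block and leaving out each array; fitting all probe sets separately was added after seeing the data. The number of arrays limits the precision.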

Additional observations from a re-analysis of the deposited data

How the results depend on the processing

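With all arrays kept, the count of members that limma called was 0 under each setting run. With 1 array left out, that count lay between 0 and 1 for lower members, between 0 and 3 for lower members at an unadjusted p under 0.05, and between 0 and 1 for higher members at an unadjusted p under 0.05 (Rb1 without Htt siRNA replicate 3, Ccnd3 without scramble replicate 3). The sign of Ccnd2 turned with array weights (0.093), and its leave-one-out range was -0.28 to 0.32; the ranges of Cdk4 (-0.024 to 0.014), Cdk6 (-0.13 to 0.031) and Cdk6 minus Cdk4 (-0.11 to 0.042) also crossed 0. Ccnd1, Ccne1, E2f1 and Rbl1 stayed negative and Ccnd3 and Rb1 positive in every setting run. For the 7 pathway lists together, limma called between 0 and 27 lower genes with 1 array left out, and with all arrays 0 under each setting but the replicate block, which gave 1. Over all genes, with 0 called in either direction, the calls were 1 higher and 2 lower with genes above the median, with centred arrays and with repeated quantile normalization, 2 and 2 with trend and robust eBayes, 0 and 1 with array weights, and 0 to 117 higher and 0 to 423 lower with 1 array left out. Centring the arrays changed the split at an unadjusted p under 0.05 from 1269 higher and 1140 lower to 620 and 1893, and testing genes above the median alone gave 517 and 845. In the 7 pathway lists together, 28 genes were lower at that p with all arrays, 26 to 40 under the other settings and 4 to 43 with 1 array left out. Same-numbered arrays of the 2 groups deviated together with r of 0.35, 0.36 and 0.01, and Htt siRNA replicate 3 correlated best with scramble replicate 1, so the numbers were not taken to pair the samples. The replicate block gave 41 higher and 57 lower genes, 7 higher differentiated muscle genes and 0 called members. With that block, and with array weights, Ccnd1, Ccne1 and Rbl1 were lower at an unadjusted limma p under 0.05, against 2 members in the main fit. Over all genes, 845 to 1893 were lower at that p under the other settings that kept all arrays. Weak signals limit what a log2 difference shows, and no detection calls were used.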

Other observations

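The probe set annotated to both Ccne2 and Ints8 (17411761) cannot be assigned to either gene, and its values are given as they stand. It read 4.11, 6.56 and 4.21 in Htt siRNA replicates 1, 2 and 3, against 5.65, 7.13 and 6.65 in the scramble arrays. Htt siRNA replicates 1 and 3 lay lowest and replicate 2 lay within the scramble range. In a limma fit of all 41345 probe sets, chosen after seeing the data, its log2 fold change was -1.51 ± 0.71 (limma adjusted p = 0.584). The 2 probe sets annotated to both Lpar6 and Rb1 had log2 fold changes of 0.00 ± 0.14 and 0.05 ± 0.13 in that fit.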
